A study of Asparagus officinalis with 12 samples.

Results

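Stem segments of 10 cm stems (H-10) were compared with those of 40 cm stems (H-40) of asparagus, Asparagus officinalis ‘Fengdao 2’. The comparison took 6 of the 12 RNA-Seq libraries of the study, 3 for each height, and the 20352 of 35166 genes in the table that reached 1 FPKM in 3 or more of the 12 libraries. FPKM scales fragments to the length of a gene and to a size assigned to the library, so that levels can be compared between genes. The H-10 segment lay 3 to 6 cm above the surface, and the H-40 segment lay 17 to 20 cm above it, so that stem height and position on the stem cannot be told apart. All stems were of this cultivar, the labels name no treatment, and the study compared 4 heights to follow stem elongation. The other 2 heights, H-25 and H-60, were cut at 17 to 20 cm like H-40. Their libraries enter the filter on low values and the estimate of spread that all 12 libraries share. Their levels are given beside the main comparison, in places with a test against H-40. The number of stems behind each library is not given, and p-values measure the spread between 3 libraries per height, which may be technical.

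An asparagus spear lengthens from a tip that divides and from internodes whose cells expand and then mature. Cells that divide need histones to package new DNA and ribosomes to make protein. Expanding cells loosen their primary wall with expansins and xyloglucan endotransglucosylases and take up water through aquaporins. Cells that stop expanding in the vascular bundles and the sclerenchyma ring lay down a secondary wall of cellulose, xylan and lignin, which makes a spear fibrous. Secondary wall synthesis in flowering plants runs through NAC and MYB transcription factors to dedicated cellulose synthase subunits, xylan synthases, the monolignol pathway and laccases, which polymerise monolignols in the wall.

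The 6 libraries held 13470633 to 16980659 fragments, recovered from the FPKM values, at which 1 fragment in a gene of 1 kb equals 0.0522 to 0.0795 FPKM. The size behind the FPKM was not the fragment total alone. H-40 replicate 2 had 15365004 fragments and 0.0703 FPKM for 1 such fragment, beside 14986367 and 0.0602 for H-10 replicate 2. The counts in each direction rest on this deposited scaling. Pairs of H-10 libraries had squared correlations of log2(FPKM + 1) of 0.937 to 0.976, pairs of H-40 libraries of 0.954 to 0.963, and pairs across the heights of 0.825 to 0.883. On principal component 1 of the 6 libraries (69.2% of the variance) H-10 lay between -78.7 and -57.6 and H-40 between 59.7 and 87.1. H-10 replicate 1 stood apart on component 2 (13.2%), at 62.3 beside -23.4 and -29.5 for the other H-10 libraries. It also had the highest share of heat shock fragments, 1.12% beside 0.545% and 0.652%, and the lowest share of histone fragments, 0.244% beside 0.429% and 0.521%. Counts are therefore given with and without it for most lists. Where no count without it is given, the count may change when it is left out.

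Of the 20352 genes, 1970 were higher at H-40 (9.68%) and 2023 were lower (9.94%), which is 19.6% in either direction. The criteria were an adjusted p not above 0.05 (limma on log2(FPKM + 1), Benjamini-Hochberg) and an absolute log2 fold change of 1 or more. The 3 libraries of a height did not overlap those of the other height in 49.0% of all tested genes, so an absence of overlap is common here. A call below means both criteria, and log2 values are differences of H-40 minus H-10 on the log2(FPKM + 1) scale, where the added 1 shrinks the change of low genes. Without H-10 replicate 1 the counts were 2060 higher and 2118 lower. The largest changes were more often rises. A log2 fold change of 3 or more was called for 199 higher and 99 lower genes, and of 5 or more for 24 higher and 4 lower genes. The median of all tested genes was -0.009. On a TPM scale it moved to -0.115, with 1862 genes higher and 2596 lower, so values near 0 have a direction only relative to that shift. In bulk tissue a lower level may mean fewer cells of a type or less RNA per cell, which cannot be told apart.

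**Figure D1:**
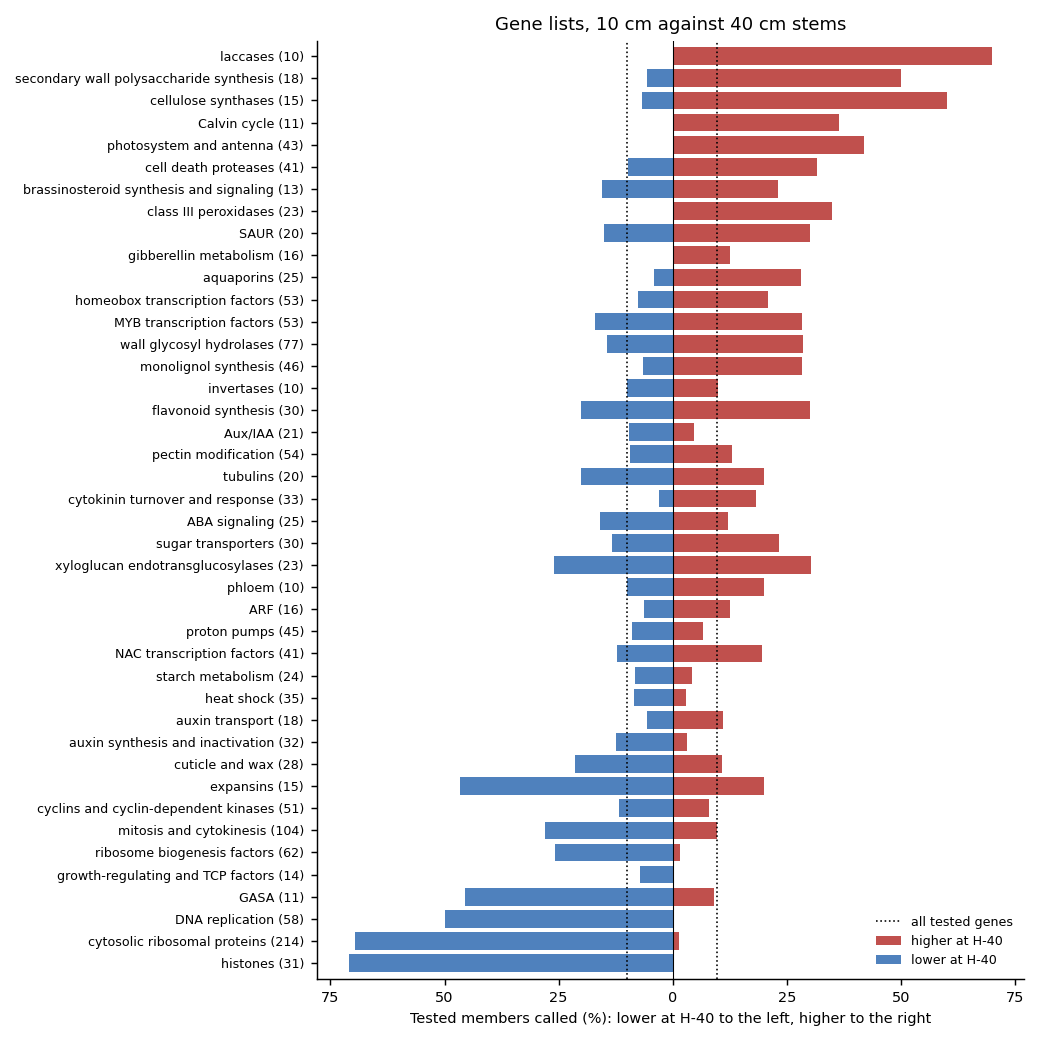
Share of tested members called lower (blue, left) or higher (red, right) at H-40 in the gene lists with at least 10 tested members, whose number stands in brackets, ordered by the median log2 fold change; dotted lines mark all tested genes (9.68% higher, 9.94% lower). Histones, cytosolic ribosomal proteins and DNA replication genes lie at the lower end and laccases, secondary wall polysaccharide synthesis and cellulose synthases at the upper end.

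Genes of secondary wall synthesis were called higher in the 40 cm segment more often than lower. Of 15 cellulose synthase A catalytic subunits tested, 9 were higher at H-40 and 1 was lower, with a median log2 fold change of 1.30. Of 18 genes of secondary wall polysaccharide synthesis 9 were higher and 1 was lower (median 1.32), and of 10 laccases 7 were higher and none was lower (median 2.48). Without H-10 replicate 1 the counts were 8 and 0, 10 and 1, and 7 and 0.

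CESA4, CESA7 and CESA9 are the subunits that make secondary wall cellulose in rice. CESA4 (LOC109847015, chromosome 1 from 129214210 to 129223066, minus strand) measured 9.61, 4.71 and 3.62 FPKM in H-10 replicates 1 to 3 and 315, 495 and 401 FPKM in H-40 replicates 1 to 3. CESA7 (LOC109836391, chromosome 4 from 3852514 to 3858746, minus strand) measured 6.49, 4.69 and 4.67 FPKM at H-10 and 321, 482 and 462 FPKM at H-40. CESA9 (LOC109844015, chromosome 5 from 77875272 to 77882091, minus strand) measured 3.76, 3.40 and 2.63 FPKM at H-10 and 250, 422 and 343 FPKM at H-40. Every H-40 library exceeded every H-10 library in all 3 genes. The log2 fold changes were 5.93 ± 0.41 (SE) for CESA4, 6.06 ± 0.37 for CESA7 and 6.29 ± 0.47 for CESA9, with adjusted p-values of 3.8e-06, 1.5e-06 and 5.1e-06 (limma). The means at H-40 were 404, 422 and 338 FPKM. At H-25 their highest library was replicate 2, with 8.03, 8.95 and 7.84 FPKM, and at H-60 they ranged from 435 to 866 FPKM, a difference from H-40 that did not pass the test (adjusted p = 0.31, 0.29 and 0.28, limma).

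The other cellulose synthase subunits changed less, but the 9 called higher include more than CESA4, CESA7 and CESA9. The subunits given next were not among the 9. The subunit with the highest level at H-10, LOC109845878, measured 418, 293 and 257 FPKM at H-10 and 471, 450 and 528 FPKM at H-40. Its groups did not overlap, but the log2 fold change of 0.61 ± 0.23 was not called (adjusted p = 0.06, limma). The single subunit called lower, CESA2 (LOC109836559), measured 17.8, 14.3 and 12.1 FPKM at H-10 and 5.67, 5.98 and 7.56 FPKM at H-40. Leaving out any single one of H-10 replicates 1 and 2 and H-40 replicates 1 and 2 ended its call (adjusted p from 0.066 to 0.083 in limma).

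Xylan is the hemicellulose that coats secondary wall cellulose, and its backbone is extended by the IRX9, IRX10 and IRX14 proteins. IRX10L (LOC109823871) measured 61.8, 56.7 and 50.2 FPKM at H-10 and 318, 410 and 318 FPKM at H-40 (2.60 ± 0.23 on the log2 scale, limma adjusted p = 1.7e-05). IRX14H (LOC109822132, chromosome 8 from 65051526 to 65053250) measured 12, 7.40 and 4.95 FPKM at H-10 and 227, 248 and 245 FPKM at H-40. IRX9 (LOC109850667) measured 21.3, 9.96 and 5.85 FPKM at H-10 and 258, 263 and 273 FPKM at H-40. The last 2 genes were chosen for naming after their values were seen. IRX10L had the highest level of the 3 at H-10 and the smallest rise, beside log2 fold changes of 4.8 ± 0.38 for IRX14H and 4.48 ± 0.56 for IRX9. The methyltransferase that decorates glucuronoxylan, LOC109826029, was 4.18-fold higher at H-40, and COBRA-like protein 4 (LOC109851253), a member of a family that acts in cellulose deposition, was 48.7-fold higher. The probable galacturonosyltransferase 12 (LOC109833298), which in Arabidopsis is needed for xylan of the secondary wall, measured 2.20, 1.17 and 1.27 FPKM at H-10 and 117, 195 and 142 FPKM at H-40. COBRA-like protein 7 (LOC109848918) was the member called lower, 3.45-fold.

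**Figure D2:**
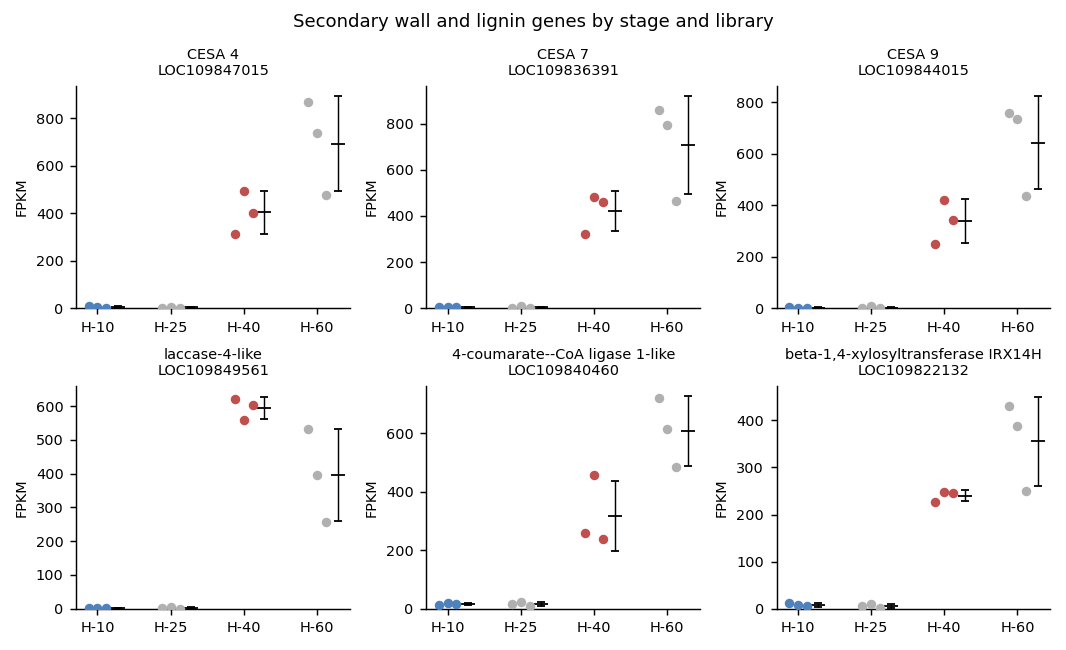
FPKM of 6 secondary wall and lignin genes in each library (points) at the 4 heights, with the mean and SD of 3 libraries as a bar beside them; H-10 is blue, H-40 red and the other heights grey. In all 6 panels every H-10 and H-25 library lies below every H-40 library.

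Laccases were 3 of the 15 genes with the largest rises when calls were limited to described genes that did not overlap and averaged 10 FPKM or more at the higher height. Laccase-4-like (LOC109849561, chromosome 7 from 939376 to 942573) measured 3.42, 2.88 and 1.84 FPKM at H-10 and 622, 558 and 604 FPKM at H-40. Laccase-17-like (LOC109829847, chromosome 2 from 1588208 to 1590673) measured 2.28, 2.88 and 1.82 FPKM at H-10 and 455, 430 and 428 FPKM at H-40. Laccase-3-like (LOC109819580, chromosome 8 from 127010640 to 127014455) measured 2.86, 1.53 and 0.713 FPKM at H-10 and 271, 217 and 294 FPKM at H-40. In Arabidopsis the laccases LAC4 and LAC17 act in lignin polymerisation in the stem. The 3 genes differed by log2 fold changes of 7.35 ± 0.42, 7.05 ± 0.51 and 6.66 ± 0.38. The choice of genes for this ranking already required that no libraries overlapped. All laccases together took 0.00528% to 0.00736% of the fragments at H-10 and 0.255% to 0.302% at H-40.

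Genes of monolignol synthesis, which make the lignin precursors from phenylalanine, were more often higher than lower. Of 46 tested members 13 were higher and 3 lower (median log2 fold change 0.35), and 13 and 4 without H-10 replicate 1. At the entry of the pathway a phenylalanine ammonia-lyase (LOC109826061) measured 17.1, 26.4 and 21.7 FPKM at H-10 and 217, 479 and 317 FPKM at H-40. The next enzyme, trans-cinnamate 4-monooxygenase (LOC109846559), measured 48.2, 86.9 and 40.8 FPKM at H-10 and 506, 612 and 523 FPKM at H-40. 4-coumarate--CoA ligase 1-like (LOC109840460) measured 12.7, 20.8 and 15.3 FPKM at H-10 and 260, 455 and 238 FPKM at H-40. No libraries overlapped in any of these 3 genes, and the mean was 15.5-fold, 9.32-fold and 19.5-fold higher at H-40. Further along the pathway cytochrome P450 98A2 (LOC109819911), the hydroxylase of the aromatic ring, was 3.61-fold higher, and the methyltransferase caffeoyl-CoA O-methyltransferase (LOC109835762) was 14.8-fold higher. The last step, a probable cinnamyl alcohol dehydrogenase (LOC109841100), had a mean 12.6-fold higher than at H-10 (3.61 ± 0.36 on the log2 scale, adjusted p = 3.3e-05 in limma). The ammonia-lyase and the methyltransferase were chosen for naming after their values were seen. Against this direction the probable cinnamyl alcohol dehydrogenase 6 (LOC109849900) measured 18.6, 26.5 and 10.2 FPKM at H-10 and 3.00, 1.64 and 2.38 FPKM at H-40.

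Class III peroxidases oxidise monolignols and other phenolics in the wall. Of 23 tested members 8 were higher and none was lower (median 0.56), and 6 and 0 without H-10 replicate 1. Cationic peroxidase 1-like (LOC109850587) measured 0.221, 0.0511 and 0 FPKM at H-10, which is at most 5 fragments, and 49.0, 73.5 and 48.2 FPKM at H-40. Peroxidase 64 (LOC109850189) measured 263, 140 and 14.8 FPKM at H-10 and 1920, 1565 and 3226 FPKM at H-40, so that the H-10 libraries differed more among themselves, as a ratio, than the H-40 libraries did. Peroxidase P7-like (LOC109820508), the member with the highest level at H-10, measured 907, 670 and 489 FPKM at H-10 and 1322, 1103 and 1501 FPKM at H-40 and was not called (log2 fold change 0.96 ± 0.41, adjusted p = 0.092, limma).

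The transcription factor families that hold the known switches of the secondary wall moved in both directions. Of 53 MYB factors 15 were higher and 9 lower (median 0.39), and of 41 NAC factors 8 were higher and 5 lower (median -0.02). Without H-10 replicate 1 the counts were 17 and 8 for MYB and 7 and 5 for NAC. MYB26-like (LOC109835796), whose Arabidopsis namesake acts in secondary thickening of the anther wall, measured 0 FPKM in all H-10 libraries and 23.7, 23.0 and 13.4 FPKM at H-40. Against a floor of 3 fragments in each H-10 library it was at least 147-fold higher at H-40. MYB46-like (LOC109822703), named for a master switch of the secondary wall in Arabidopsis, measured 5.93, 3.67 and 1.82 FPKM at H-10 and 38.5, 36.6 and 57.5 FPKM at H-40. NAC domain-containing protein 43-like (LOC109849149; NAC043 is NST1 in Arabidopsis, upstream of MYB46) measured 7.14, 10.4 and 5.02 FPKM at H-10 and 35.8, 27.6 and 70.2 FPKM at H-40. The last 2 genes were chosen after their values were seen, and neither overlapped between heights (log2 fold changes 3.30 ± 0.60 and 2.35 ± 0.39). NAC domain-containing protein 73-like (LOC109840772) was 10.7-fold higher, and myb-related protein Hv33-like (LOC109840692) was 8.51-fold higher. In the other direction NAC domain-containing protein 68-like (LOC109831587) measured 262, 272 and 140 FPKM at H-10 and 73.3, 37.6 and 55.8 FPKM at H-40. Myb-related protein 306-like (LOC109830828) measured 11.9, 14.1 and 10.7 FPKM at H-10 and 0.160, 0.0584 and 0.462 FPKM at H-40.

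Homeobox factors, which pattern vascular tissue and meristems, were called higher in 11 and lower in 4 of 53 tested members (median 0.43), with and without H-10 replicate 1. The class III factor HOX32-like (LOC109846343) measured 36.5, 43.5 and 58.6 FPKM at H-10 and 170, 178 and 171 FPKM at H-40. Knotted-1-like 3 (LOC109837832) measured 3.62, 7.27 and 2.99 FPKM at H-10 and 39.2, 35.2 and 42.7 FPKM at H-40. BEL1-like homeodomain protein 7 (LOC109844411), of a family that pairs with knotted-1-like proteins and chosen after its values were seen, was 6.05-fold higher. Among the members of highest level HOX21-like (LOC109833887) was called lower (log2 fold change -1.03 ± 0.31, adjusted p = 0.022, limma). It measured 205, 148 and 149 FPKM at H-10 and 47.5, 87.7 and 123 FPKM at H-40. HAT4-like (LOC109820224), named for an Arabidopsis factor of the shade response, measured 14.3, 7.29 and 2.06 FPKM at H-10 and 0.238, 0 and 1.03 FPKM at H-40. These groups did not overlap either, although the H-10 libraries differed among themselves by more than the other factors named here.

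Histone, ribosomal protein and DNA replication genes were called lower at H-40 more often than higher. Of 31 tested histone genes 22 were lower and none was higher, with a median log2 fold change of -2.03. Of 214 genes for cytosolic ribosomal proteins 149 were lower and 3 were higher (median -1.43), and of 58 DNA replication genes 29 were lower and none was higher (median -1.07). Without H-10 replicate 1 the counts of lower members were 23, 156 and 30. Many genes of these families are near-identical copies, so that fragments may be shared between members and the value of a single copy is uncertain.

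Histone H3.2-like (LOC109838317, chromosome 4 from 20840703 to 20841354), of the class deposited during DNA replication, measured 253, 609 and 808 FPKM at H-10 and 54.8, 22.7 and 80.2 FPKM at H-40. The replication-coupled histone H2B.3 (LOC109821931) measured 231, 458 and 575 FPKM at H-10 and 55.9, 28.9 and 71.9 FPKM at H-40. The replacement histone H3.3 (LOC109832785), which is made outside DNA replication as well, measured 629, 852 and 842 FPKM at H-10 and 582, 550 and 614 FPKM at H-40. In the first 2 genes the lowest H-10 value was that of replicate 1, and it was still above all H-40 values. H3.3 differed by -0.40 on the log2 scale, with a 95% interval from -0.85 to 0.05, against -3.40 ± 0.50 for H3.2-like (adjusted p = 0.00042, limma). The histone list as a whole took 0.244% to 0.521% of the fragments at H-10 and 0.075% to 0.115% at H-40.

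The large subunit of ribonucleoside-diphosphate reductase (LOC109836553), which makes the deoxynucleotides for DNA, measured 79.0, 113 and 146 FPKM at H-10 and 14.3, 7.78 and 24 FPKM at H-40. Subunit 6 of the origin of replication complex (LOC109850477) measured 37.2, 44.9 and 69.0 FPKM at H-10 and 4.23, 1.53 and 4.37 FPKM at H-40. Proliferating cell nuclear antigen-like (LOC109821994), the sliding clamp of DNA polymerase, measured 187, 209 and 289 FPKM at H-10 and 74.1, 101 and 129 FPKM at H-40. No libraries overlapped in the 3 genes, but the clamp was not called (log2 fold change -1.18 ± 0.45, adjusted p = 0.062, limma), beside -2.88 ± 0.35 for the reductase and -3.59 ± 0.43 for the origin subunit. It was called on the TPM scale, after quantile normalization, with the replicate term, with the 6 libraries alone and on the recovered fragments.

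Cyclins and their kinases drive the cell cycle, and 6 of 51 tested members were lower and 4 higher (median -0.46). These shares of 11.8% and 7.84% lie near those of all genes. The count of lower members was 8 without H-10 replicate 1, 10 on the TPM scale and 11 in a fit of the 6 libraries alone. Cyclin-A3-1-like (LOC109822219) measured 5.57, 6.23 and 9.72 FPKM at H-10 and 0.692, 0.0945 and 0.587 FPKM at H-40. Cyclin-dependent kinase B1-1 (LOC109851285), of a kinase class specific to plants and to division, measured 2.61, 3.31 and 6.67 FPKM at H-10 and 0.0512, 0 and 0.253 FPKM at H-40, at most 4 fragments. Cyclin-dependent kinase inhibitor 4-like (LOC109836290) measured 17.6, 23.1 and 23.0 FPKM at H-10 and 47.9, 59.8 and 45.4 FPKM at H-40. The kinase gene and the inhibitor gene, both chosen after their values were seen, moved in opposite directions (log2 fold changes -2.17 ± 0.51 and 1.23 ± 0.18). A cyclin-B1-2-like gene of high level (LOC109820975) measured 78.7, 100.04 and 86.7 FPKM at H-10 and 93.1, 81.4 and 84.7 FPKM at H-40, with a 95% interval of the log2 fold change from -0.34 to 0.28.

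The list of mitosis and cytokinesis held members of both directions. Of 104 tested members 29 were lower and 10 higher (median -0.54), and 30 and 9 without H-10 replicate 1. The kinesin KIN-5C (LOC109825716), a motor of the spindle and chosen after its values were seen, measured 7.13, 7.54 and 12.7 FPKM at H-10 and 1.24, 0.749 and 1.24 FPKM at H-40. The 65-kDa microtubule-associated protein 1-like (LOC109840123), a cross-linker of the phragmoplast, measured 181, 111 and 127 FPKM at H-10 and 43.4, 35.6 and 44.1 FPKM at H-40. A gene described as TPX2-like (LOC109841803, chromosome 5 from 48438352 to 48439779) went the other way, with 0, 0 and 0.101 FPKM at H-10, a single fragment in all, and 90.8, 112 and 43.5 FPKM at H-40. Microtubule-associated protein 70-2 (LOC109822860), of a family that in Arabidopsis positions secondary wall bands, was chosen after its values were seen and measured 1.38, 0.812 and 1.01 FPKM at H-10 and 28.8, 61.3 and 27.7 FPKM at H-40. The list name thus covers microtubule genes that were higher at H-40 while the kinesin and the cross-linker were lower, and TPX2-like reached 236 to 426 FPKM at H-60.

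Tubulins, the subunits of microtubules in both spindles and cortical arrays, were called higher in 4 and lower in 4 of 20 tested members (median 0.12), and 3 and 5 without H-10 replicate 1. Among genes of high level a tubulin alpha chain (LOC109833162) measured 486, 627 and 523 FPKM at H-10 and 1832, 1661 and 1677 FPKM at H-40. A tubulin beta-1 chain (LOC109848641) measured 249, 377 and 474 FPKM at H-10 and 1074, 1816 and 1112 FPKM at H-40. Tubulin beta-1 chain-like (LOC109824970) measured 41.9, 60.0 and 71.3 FPKM at H-10 and 4.15, 7.68 and 13.9 FPKM at H-40. These copies rose 3.16-fold and 3.64-fold and fell 6.74-fold. The most abundant copy at H-10, tubulin alpha chain-like LOC109819568, measured 1338, 1502 and 1770 FPKM at H-10 and 1081, 2018 and 1538 FPKM at H-40, and its libraries overlapped (95% interval of the log2 fold change from -0.61 to 0.55). Tubulin gamma-2 chain (LOC109831798), which nucleates microtubules and was chosen after its values were seen, fell 5.80-fold.

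Ribosomal protein genes took 3.24%, 3.66% and 4.44% of the fragments in H-10 replicates 1 to 3 and 1.43%, 1.36% and 1.62% in H-40 replicates 1 to 3. Their largest fall was that of 60S ribosomal protein L38 (LOC109823929), with 451, 336 and 365 FPKM at H-10 and 32.9, 13.3 and 54.0 FPKM at H-40. Genes of high level were among those not called. 60S ribosomal protein L10a-like (LOC109842726) measured 934, 693 and 799 FPKM at H-10 and 563, 1080 and 1028 FPKM at H-40, so that the heights overlapped. Of 62 ribosome biogenesis factors 16 were lower and 1 was higher (median -0.58), and 17 and 1 without H-10 replicate 1. The H-25 libraries had the highest ribosomal shares of the series, 8.12% and 7.58% in replicates 1 and 3 beside 3.93% in replicate 2. The H-25 libraries, like those of H-60, enter the comparison of H-10 and H-40 through the shared estimate of spread and the filter on low values.

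**Figure D3:**
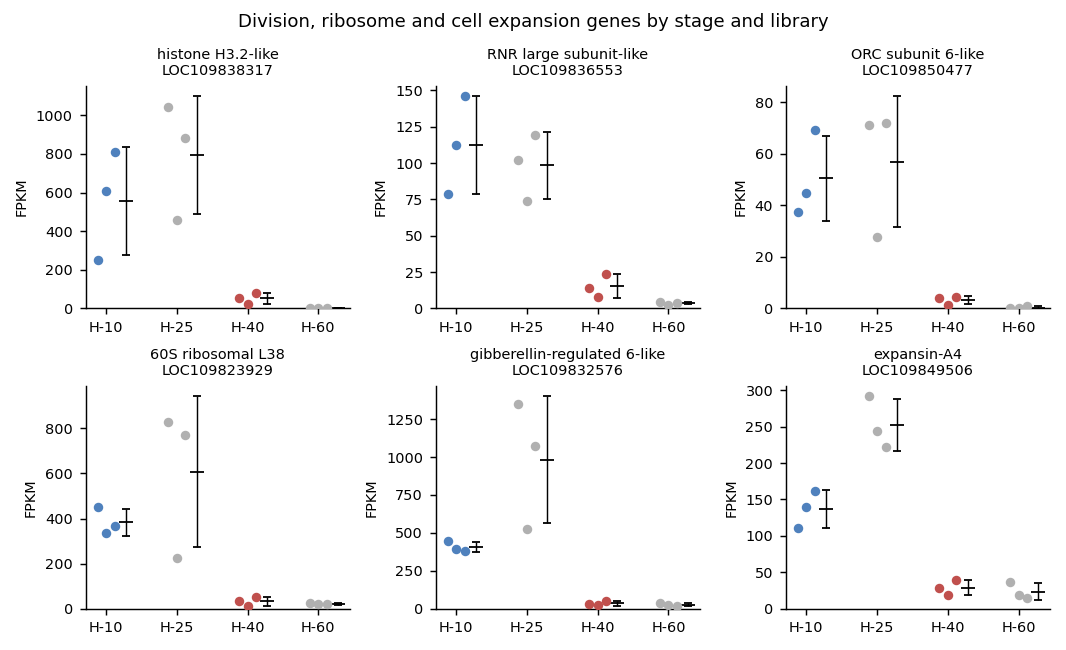
FPKM of 6 genes of division, ribosomes and cell expansion in each library (points) at the 4 heights, with the mean and SD of 3 libraries as a bar beside them; H-10 is blue, H-40 red and the other heights grey. Each gene is higher in all H-10 libraries than in all H-40 libraries, and the H-25 libraries lie above all H-40 libraries.

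Genes that loosen the primary wall split within their families. Of 15 expansins 7 were lower and 3 higher at H-40 (median -0.45), and 7 and 2 without H-10 replicate 1. Expansin-A4 (LOC109849506) measured 110, 139 and 162 FPKM at H-10 and 28.4, 18.6 and 39.4 FPKM at H-40. Expansin-A11-like (LOC109849020) measured 14.3, 5.77 and 21.2 FPKM at H-10 and 0.679, 0 and 1.26 FPKM at H-40. Both fell with no overlap (log2 fold changes -2.26 ± 0.32 and -3.08 ± 0.40). Expansin-A2-like (LOC109840564), the member of highest level, measured 321, 325 and 240 FPKM at H-10 and 208, 116 and 422 FPKM at H-40 and overlapped between the heights. Expansin-A10-like (LOC109833865) was 3.20-fold higher at H-40, a call that ended when H-10 replicate 3 or either of H-40 replicates 2 and 3 was left out (adjusted p from 0.054 to 0.077, limma).

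Xyloglucan endotransglucosylases cut and rejoin the xyloglucan between cellulose fibrils. Of 23 tested members 7 were higher and 6 lower (median 0.08), and 7 and 5 without H-10 replicate 1. The member described as protein 24 (LOC109840447, chromosome 5 from 102811335 to 102813300) measured 4.75, 0.114 and 0 FPKM at H-10 and 161, 245 and 240 FPKM at H-40. The member described as protein 23 (LOC109840405, chromosome 5 from 101630953 to 101632222) measured 461, 702 and 405 FPKM at H-10 and 33.8, 18.9 and 9.50 FPKM at H-40. The 2 genes moved by 6.84 ± 0.52 and -4.72 ± 0.37 on the log2 scale, the third largest rise and the fourth largest fall among the 30 leading genes. Protein 24 was at 0, 0.203 and 0 FPKM at H-25 and at 25.9 to 40.1 FPKM at H-60, below H-40 (adjusted p = 0.0081, limma). Protein 23 was at 66.7 to 108 FPKM at H-25. LOC109841353 of the same family was 26.2-fold higher at H-40, and the member of highest level at H-10, LOC109823757, measured 1152, 1241 and 772 FPKM at H-10 and 1199, 1693 and 2144 FPKM at H-40 and was not called.

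Other wall enzymes also moved both ways. Of 77 wall glycosyl hydrolases 22 were higher and 11 lower (median 0.39), and 22 and 12 without H-10 replicate 1. Beta-D-xylosidase 1-like (LOC109819692), which removes xylose from xylan, measured 26.6, 14.1 and 10.7 FPKM at H-10 and 1054, 1673 and 1228 FPKM at H-40. A beta-galactosidase (LOC109828085) measured 54.8, 27.3 and 23.5 FPKM at H-10 and 1234, 1597 and 1430 FPKM at H-40. Endoglucanase 17-like (LOC109848303) measured 22.9, 28.4 and 25.3 FPKM at H-10 and 1.48, 1.47 and 5.46 FPKM at H-40. The xylosidase and the galactosidase were among the most abundant members at H-40, with no overlap between heights. Of 54 pectin genes 7 were higher and 5 lower, shares of 13% and 9.26% that lie near those of all genes. Their extremes were 2 polygalacturonases, enzymes that cut pectin, of which LOC109833601 was 72.1-fold higher and At1g48100 (LOC109831923) 16.8-fold lower at H-40.

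Arabinogalactan proteins of the cell surface numbered 9 tested members, of which 1 was higher and 2 were lower (median 0.82), and 2 and 3 without H-10 replicate 1. A fit of the 6 libraries alone called 3 higher and 2 lower, and the TPM scale 1 and 3. Fasciclin-like arabinogalactan protein 9 (LOC109835209) measured 364, 442 and 336 FPKM at H-10 and 850, 1055 and 1107 FPKM at H-40. It did not overlap but was not called (log2 fold change 1.40 ± 0.54, adjusted p = 0.064, limma). Fasciclin-like arabinogalactan protein 12 (LOC109850468), of a group found in fibres, measured 215, 127 and 34.5 FPKM at H-10 and 1421, 2171 and 1757 FPKM at H-40. Arabinogalactan peptide 16-like (LOC109834739) measured 342, 406 and 403 FPKM at H-10 and 22.5, 15.0 and 22.5 FPKM at H-40. The peptide varied little among libraries of a height, and its fall of -4.21 ± 0.21 on the log2 scale had an adjusted p of 3.7e-07 (limma).

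**Figure D4:**
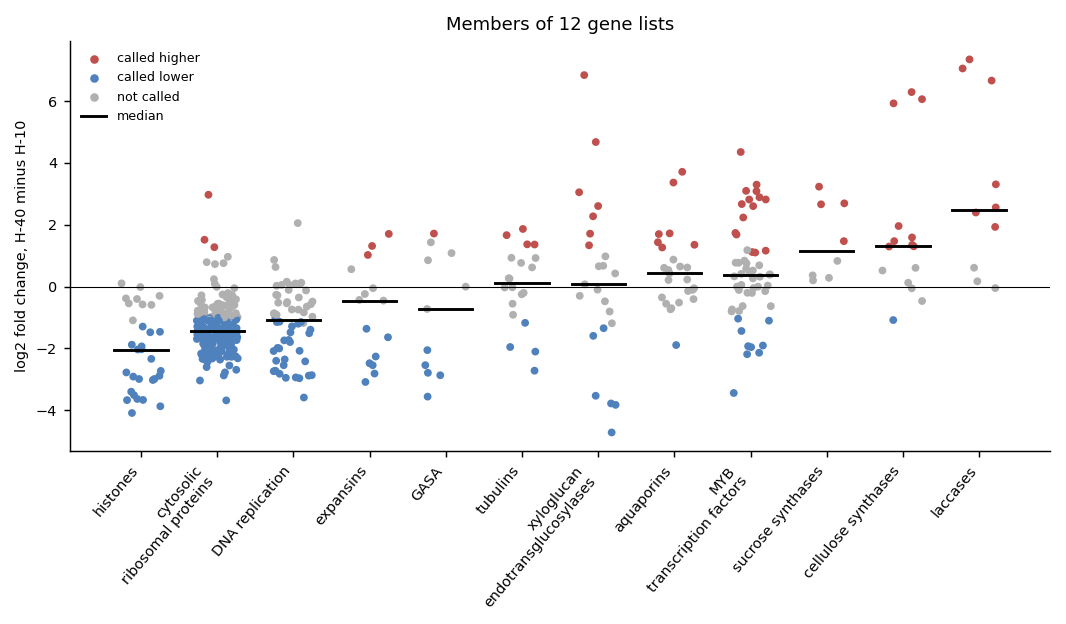
Log2 fold change (H-40 minus H-10, vertical axis) of every tested member of 12 gene lists, red where called higher, blue where called lower and grey where not called, with the list median as a black line. Histones, ribosomal proteins and DNA replication genes lie mostly below 0, laccases mostly above 0, and expansins, tubulins, xyloglucan endotransglucosylases, aquaporins and MYB factors hold called members on both sides.

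Gibberellin-regulated GASA proteins are small secreted peptides that many plants express in elongating tissue. Of 11 tested members 5 were lower and 1 was higher at H-40 (median -0.72), and 5 and 2 without H-10 replicate 1. The first gibberellin-regulated protein 6-like gene (LOC109822577) measured 2385, 1312 and 2015 FPKM at H-10 and 286, 153 and 435 FPKM at H-40. The second such gene (LOC109832576, chromosome 3 from 992631 to 994330) measured 444, 394 and 379 FPKM at H-10 and 29.0, 25.4 and 50.6 FPKM at H-40. Gibberellin-regulated protein 9 (LOC109824490) measured 474, 561 and 560 FPKM at H-10 and 111, 135 and 137 FPKM at H-40. The 3 members of highest level at H-10 were thus lower at H-40 without overlap, by 6.54-fold, 11.6-fold and 4.17-fold. The member called higher, gibberellin-regulated protein 2-like (LOC109825701), had 0, 0.203 and 0.331 FPKM at H-10 and 4.66, 3.55 and 1.2 FPKM at H-40.

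Gibberellin promotes stem elongation by removing DELLA repressors. Of 2 tested genes of gibberellin signaling DELLA protein SLR1-like (LOC109834899) was called, with 9.03, 11.4 and 15.4 FPKM at H-10 and 28.4, 44.5 and 34.4 FPKM at H-40 (1.51 ± 0.21 on the log2 scale, limma adjusted p = 0.00031). The receptor GID1C (LOC109849239) measured 8.02, 9.59 and 7.84 FPKM at H-10 and 12.3, 13.8 and 15.9 FPKM at H-40 and was not called (adjusted p = 0.051). Of 16 genes of gibberellin metabolism 2 were higher and none was lower (median 0.48). The gibberellin-inactivating dioxygenase LOC109823202 measured 24.2, 19.1 and 7.17 FPKM at H-10 and 13.2, 12 and 11.5 FPKM at H-40, and the 95% interval of its log2 fold change ran from -1.09 to 0.53.

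Auxin genes changed in single members more than as lists. Of 20 SAUR genes, whose products promote cell expansion, 6 were higher and 3 lower (median 0.54), and 7 and 3 without H-10 replicate 1. SAUR68-like LOC109849680 measured 10.4, 1.39 and 3.48 FPKM at H-10 and 41.6, 58.4 and 38.5 FPKM at H-40. SAUR50-like LOC109837067 measured 27, 22.5 and 39.8 FPKM at H-10 and 2.34, 0.473 and 3.32 FPKM at H-40. The same family thus had a member 9.09-fold higher and a member 14.6-fold lower, both without overlap. Of 21 Aux/IAA repressors 1 was higher and 2 were lower, and IAA20-like (LOC109822248) measured 0.0683, 0 and 0 FPKM at H-10, a single fragment, and 15.4, 18.1 and 10.6 FPKM at H-40. It was at 0.187 to 1.61 FPKM at H-60. IAA17-like (LOC109839925), the member with the highest mean at H-10, measured 467, 521 and 575 FPKM at H-10 and 521, 502 and 510 FPKM at H-40, with a 95% interval of the log2 fold change from -0.42 to 0.37. IAA1-like (LOC109819477), the member with the highest mean at H-40, measured 402.5, 499 and 381 FPKM at H-10 and 899, 750.3 and 881 FPKM at H-40. It did not overlap and had an adjusted p of 0.0015 (limma), but its log2 fold change of 0.98 ± 0.18 was just under the fold criterion.

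Of 18 auxin transport genes 2 were higher and 1 was lower (2 and 2 without H-10 replicate 1). These are shares of 11.1% and 5.56%, beside 9.68% and 9.94% of all genes. Auxin transporter-like protein 1 (LOC109829760), an influx carrier, measured 9.42, 11.3 and 9.35 FPKM at H-10 and 66.6, 139 and 92.7 FPKM at H-40. Of 16 auxin response factors 2 were higher and 1 was lower, shares of 12.5% and 6.25%. ARF19-like (LOC109840137) measured 44.8, 49.7 and 45.4 FPKM at H-10 and 183, 242 and 276 FPKM at H-40. Both rose without overlap, 9.91-fold and 5.01-fold. Of 32 genes of auxin synthesis and inactivation 4 were lower and 1 was higher (3 and 2 without H-10 replicate 1). A tryptophan aminotransferase-related protein (LOC109844997), of the family at the start of auxin synthesis, measured 1.73, 4.12 and 4.70 FPKM at H-10 and 0.378, 0.367 and 0.311 FPKM at H-40.

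Phytochrome-interacting factors are light-regulated bHLH factors that promote elongation. Of 4 tested members 2 were lower at H-40 and none was higher. PIF4-like (LOC109833058) measured 13.6, 12.1 and 16 FPKM at H-10 and 1.73, 1.21 and 2.54 FPKM at H-40. A PIF3-like gene (LOC109831947) measured 68.6, 76.9 and 69.7 FPKM at H-10 and 35.3, 18 and 26.7 FPKM at H-40. The other PIF3-like genes, LOC109843010 and LOC109848277, had log2 fold changes of -0.53 ± 0.31 and -0.26 ± 0.24 and were not called.

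Brassinosteroids promote both elongation and xylem formation. Of 13 tested genes 3 were higher and 2 lower (3 and 1 without H-10 replicate 1). Cytochrome P450 85A-like (LOC109822473), a late enzyme of brassinosteroid synthesis, measured 27, 28.7 and 18.9 FPKM at H-10 and 1.94, 0.722 and 2.78 FPKM at H-40. BRI1-like 2 (LOC109833552), a receptor-like kinase of the vascular tissue in Arabidopsis, measured 2.16, 1.57 and 1.46 FPKM at H-10 and 6.79, 26.5 and 12.8 FPKM at H-40. The synthesis gene fell 13.7-fold and the kinase rose 8.86-fold, both without overlap.

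Abscisic acid genes were listed by turnover and signaling. None of 5 tested turnover genes was called, with none at an unadjusted p not above 0.05 in limma. So few genes cannot be set against the 19.6% called among all genes. Of 25 signaling genes 3 were higher and 4 lower (median 0.10), shares of 12% and 16% beside 9.68% and 9.94% of all genes. The turnover gene abscisic acid 8'-hydroxylase 1-like (LOC109837794) measured 3.12, 10.3 and 8.01 FPKM at H-10 and 5.66, 3.54 and 3.85 FPKM at H-40, with a 95% interval of the log2 fold change from -1.50 to 0.48. ABSCISIC ACID-INSENSITIVE 5-like protein 2 (LOC109827330) measured 1.13, 1.30 and 0.786 FPKM at H-10 and 6.18, 7.37 and 6.04 FPKM at H-40. The kinases SAPK1-like (LOC109825645) and SAPK3-like (LOC109820020) were 3.84-fold and 2.31-fold lower, whereas SAPK10 (LOC109848104) had an interval of the log2 fold change from -0.17 to 0.41. Of 33 cytokinin genes 6 were higher and 1 was lower, and of 7 ethylene synthesis genes 2 were lower (1 higher and 1 lower without H-10 replicate 1).

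Sugar and water genes of the 40 cm segment were mostly higher where called. All 8 sucrose synthases, which split sucrose and feed cellulose synthesis, had a log2 fold change above 0, with 4 called and a median of 1.15. Sucrose synthase 2 (LOC109845351) measured 490, 181 and 254 FPKM at H-10 and 1884, 3397 and 2954 FPKM at H-40. Sucrose synthase 4 (LOC109849688) measured 26.4, 25.0 and 15.7 FPKM at H-10 and 108, 244 and 120 FPKM at H-40. The H-40 libraries lay above all H-10 libraries in both genes (log2 fold changes 3.23 ± 0.44 and 2.69 ± 0.38). Of 30 sugar transporters 7 were higher and 4 lower. Sugar carrier protein C-like (LOC109833246) measured 5.22, 3.43 and 1.33 FPKM at H-10 and 54.6, 84 and 76.3 FPKM at H-40, and SWEET13-like (LOC109837341) was 17.7-fold lower at H-40. Of 5 sucrose synthesis genes 2 were higher, and of 10 invertases 1 was higher and 1 was lower.

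Aquaporins are water channels of the plasma membrane and the vacuole. Of 25 tested members 7 were higher and 1 was lower (median 0.43), and 6 and 1 without H-10 replicate 1. A probable aquaporin of the TIP type (LOC109826535) measured 89.1, 107 and 115 FPKM at H-10 and 1125, 2434 and 929 FPKM at H-40. PIP2-2 (LOC109836277), chosen after its values were seen, measured 175, 183 and 221 FPKM at H-10 and 1782, 3203 and 1383 FPKM at H-40. TIP2-1 (LOC109822726), the member of highest level at H-10, measured 2696, 4217 and 4509 FPKM at H-10 and 2209, 2222 and 2452 FPKM at H-40. It did not overlap but was not called (log2 fold change -0.70 ± 0.31, adjusted p = 0.11, limma), beside rises of 14.4-fold and 11-fold in the other 2 genes. Of 45 proton pump genes 3 were higher and 4 lower, with a median of 0.00.

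Among markers of the tissues that a stem segment can hold, photosystem and Calvin cycle genes were called higher more often than all genes. The shares were 41.9% and 36.4%, beside 9.68% of all genes. Photosystem and antenna genes were higher in 18 and lower in none of 43 tested members (median 0.94), 20 without H-10 replicate 1 and 13 on the TPM scale. Their share of all fragments was 1.12%, 1.51% and 0.748% at H-10 and 2.41%, 1.62% and 1.67% at H-40. Oxygen-evolving enhancer protein 2 (LOC109833064) measured 686, 713 and 420 FPKM at H-10 and 1521, 1422 and 1270 FPKM at H-40, a call that quantile normalization ended (adjusted p = 0.057, limma). Of 11 Calvin cycle genes 4 were higher and none was lower (median 1.02). Cuticle and wax genes of the epidermis took 0.0741% to 0.0993% of the fragments at H-10 and 0.0564% to 0.0658% at H-40. Of 28 tested 3 were higher and 6 lower (3 and 4 without H-10 replicate 1). Their shares of 10.7% and 21.4% stand beside 9.68% and 9.94% of all genes. Phloem genes took 0.0111% to 0.0153% at H-10 and 0.0144% to 0.0162% at H-40. Of 10 tested 2 were higher and 1 was lower (median 0.06), and these calls were all lost without H-10 replicate 1. None of the marker lists was at 0 at either height. The part of tissue composition in the other differences was not tested.

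Heat shock genes, which can mark stress at harvest, were higher in 1 and lower in 3 of 35 tested members. The counts turned to 8 higher and 2 lower without H-10 replicate 1. Heat shock protein 83 (LOC109820371) measured 729, 101 and 155 FPKM at H-10 and 137, 249 and 338 FPKM at H-40, so that its direction depends on that library. Proteases with a place in cell death and vacuole maturation were higher in 13 and lower in 4 of 41 tested members (median 0.64), and 11 and 4 without H-10 replicate 1. Vacuolar-processing enzyme-like (LOC109840805) measured 146, 93.3 and 91.5 FPKM at H-10 and 515, 809 and 510 FPKM at H-40. Nepenthesin-1-like (LOC109845424) was 72.4-fold higher. A ubiquitin-conjugating enzyme E2 (LOC109832941), the reference gene of the study's RT-qPCR, measured 209, 195 and 208 FPKM at H-10 and 220, 220 and 208 FPKM at H-40, with a 95% interval of the log2 fold change from -0.21 to 0.37.

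**Figure D5:**
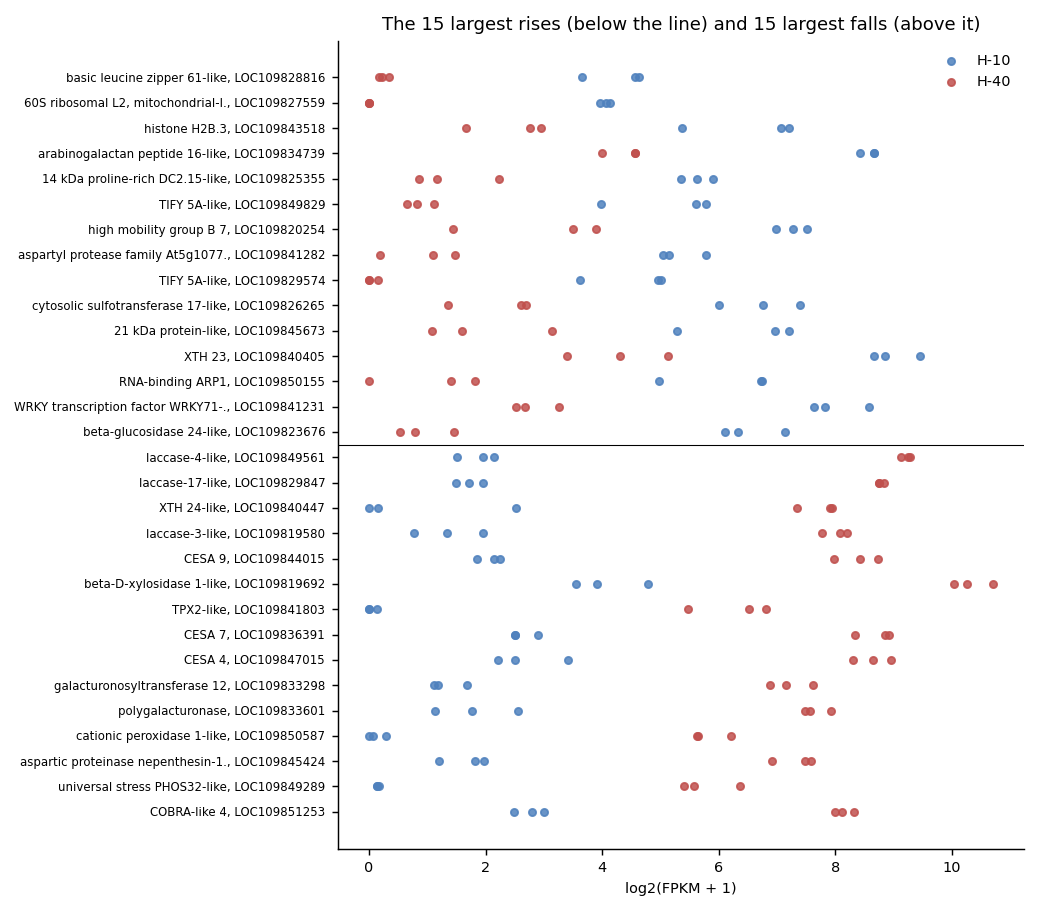
Level in each library, as log2(FPKM + 1), of the 15 called genes with the largest rises (below the line) and the 15 with the largest falls (above it) among genes with a description, a mean of at least 10 FPKM at the higher stage and no overlap; blue points are H-10 and red points H-40 libraries. The rises include 3 laccases and 3 cellulose synthase subunits.

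Phenolic and nitrogen genes were mixed. Of 30 flavonoid genes 9 were higher and 6 lower, and isoflavone reductase-like protein (LOC109845164) measured 59.4, 35.4 and 20.2 FPKM at H-10 and 1781, 1088 and 973 FPKM at H-40. It rose without overlap by 5.10 ± 0.51 on the log2 scale. Of 7 asparagine and glutamine synthetases 2 were higher (3 without H-10 replicate 1), and an asparagine synthetase (LOC109848100), which makes the amino acid that transports nitrogen, measured 4.57, 20.1 and 11.4 FPKM at H-10 and 29.4, 53.6 and 38 FPKM at H-40. Of 24 starch genes 1 was higher and 2 were lower (3 and 0 without H-10 replicate 1). Of 14 members of a list of growth-regulating and TCP factors, which also holds the AP2-like factor AIL1 (LOC109832479), 1 was lower (median -0.68). The count of lower members was 2 without H-10 replicate 1 and 3 on the TPM scale and on the recovered fragments. The member called lower, growth-regulating factor 6-like (LOC109834278), measured 6.92, 8.84 and 9.12 FPKM at H-10 and 0.992, 0.248 and 0.560 FPKM at H-40.

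The leading falls included genes other than those of division. Beta-glucosidase 24-like (LOC109823676) had the largest fall, with 140, 79.3 and 67.6 FPKM at H-10 and 0.723, 0.451 and 1.74 FPKM at H-40 (-5.60 ± 0.51 on the log2 scale, limma adjusted p = 2e-05). WRKY71-like (LOC109841231), of a transcription factor family active in defence and stress, measured 225, 381 and 199 FPKM at H-10 and 8.56, 4.71 and 5.40 FPKM at H-40. TIFY 5A-like (LOC109849829), of the family of jasmonate repressors, measured 53.9, 47.9 and 14.8 FPKM at H-10 and 1.17, 0.770 and 0.580 FPKM at H-40. At H-25 these genes measured 4.44 to 16 FPKM for the glucosidase, 12.7 to 57.8 FPKM for WRKY71-like and 0 to 10.2 FPKM for TIFY 5A-like, below all H-10 libraries. The probable RNA-binding protein ARP1 (LOC109850155) measured 30.4, 106 and 105 FPKM at H-10 and 2.51, 0 and 1.66 FPKM at H-40, with 28 to 37.3 FPKM at H-25. Basic leucine zipper 61-like (LOC109828816) measured 11.5, 22.5 and 23.8 FPKM at H-10 and 0.264, 0.173 and 0.130 FPKM at H-40, and 22.5 to 35.2 FPKM at H-25. The high mobility group B protein 7 (LOC109820254), a chromatin protein, was 17.8-fold lower. Mitochondrial 60S ribosomal protein L2-like (LOC109827559) measured 16.5, 15.8 and 14.6 FPKM at H-10 and 0 FPKM in all 3 H-40 libraries, at least 127-fold lower against a floor of 3 fragments per library. It was at 13.3 to 17.0 FPKM at H-25 and 11.5 to 12.3 FPKM at H-60, so that it was not detected at H-40 alone.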

How the data were processed

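Strand-specific RNA-Seq libraries of asparagus stems were analysed as deposited. DESeq2, featureCounts, StringTie and HISAT2 appear in the submitters' processing notes. For their versions and the genome build, the sources used here give nothing. The authors deposited FPKM per gene and library, beside 4 group means per gene, which were left aside. Columns are named H1 to H4 without a height and were read as 10, 25, 40 and 60 cm. FPKM times gene length gave whole fragments (100% of values within 0.01). The 32237 genes with a RefSeq ID have the start and end of assembly Aspof.V1. Promoter, transcript and protein sequences were not used here.

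Genes that reached 1 FPKM in 3 or more of 12 libraries were tested with limma 3.58.1 (R 4.3.3) on log2(FPKM + 1), 1 mean per height, eBayes with trend, Benjamini-Hochberg adjustment, and called at an adjusted p not above 0.05 and an absolute log2 fold change of 1 or more. Intervals are 95% intervals of limma. The pipeline was tested on simulated data. Tables were read with pandas 2.3.3 and numpy 2.4.6.

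The 50 gene lists were built from words of the deposited descriptions. Named genes are the 15 largest rises and 15 largest falls (with a description, a mean of at least 10 FPKM at the higher height and no overlap), for every list the 3 most abundant members and the called members that rose and fell most, each member of a list of 4 or fewer, and the genes of the study's primer table. Other genes are marked in the text. The text shows only a part of the genes so named. Primer genes not shown there include PAI1 (LOC109831964) and SAUR-1 (LOC109826324), which were not called, and PP2C (LOC109822304), which was called lower. Members and lists were chosen with earlier results of these data known. Alternatives were pseudocounts of 0.5 and 0.1, other filters, TPM, median-of-ratios and quantile scaling, fewer libraries, eBayes without trend or robust, a replicate term, no fold criterion, an unadjusted p, voom on recovered fragments and leaving out each library.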

Additional observations from a re-analysis of the deposited data

How the results depend on the processing

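Without the fold criterion 6851 genes passed the adjusted p, 3401 higher and 3450 lower at H-40. Leaving out each of the 6 libraries gave 1627 to 2060 higher and 1644 to 2118 lower genes, and 2680 of the 3993 DEGs were called each time. Of 159 called genes among the named, 119 were tested and called under all 19 settings, 14 were called wherever tested but were removed by the filter on a mean of at least 5 FPKM, and 26 lost the call under at least 1 setting. None of the 159 changed direction where tested. Deviations from the height means had correlations of 0.0355, -0.0926 and 0.181 between same-numbered libraries. Between libraries of different numbers they ran from -0.175 to 0.136. With 3 libraries per height these values cannot decide whether the numbers pair samples. A fit with the replicate block called 2031 higher and 2081 lower genes. Voom on recovered fragments called 2354 and 2158, and a pseudocount of 0.1 called 2343 and 2321. With 3 libraries per height, genes near the floor are the least certain.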

Other observations

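Genes were also grouped by the family name that the deposited table gives a gene, and these families share members with the lists. The families given here were chosen after their values were seen. Among all 6431 tested genes with such a name 673 were higher and 625 lower at H-40. The family Aa_trans (amino acid transporters) also holds auxin transporter-like protein 1 (LOC109829760). Of its 42 tested members 16 were higher and 3 lower, with a median log2 fold change of 0.64. Of 48 glycosyltransferases of the UDPGT family 15 were higher and 4 lower, and of 115 cytochromes P450 24 were higher and 14 lower. Of 61 HLH factors 6 were higher and 14 lower.

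WRKY factors moved in both directions. Of 38 tested by description 5 were higher and 12 lower, with a median of -0.01 and a range from -5.20 to 1.65. Probable WRKY transcription factor 41 (LOC109827901) had a mean of 193 FPKM at H-10 and 16.9 FPKM at H-40, and WRKY1-like (LOC109849153) of 47.0 and 145 FPKM. Of 9 TIFY proteins, which include the jasmonate repressors, 6 were lower and none was higher, with a median of -1.69.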
